A study of Mus musculus with 124 samples.

Results

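The REV-ERB and ROR receptors are nuclear receptors of the mammalian circadian clock, and 4 of their genes are described here: Nr1d1 (REV-ERBα), Nr1d2 (REV-ERBβ), Rora (RORα) and Rorb (RORβ). They were found by gene symbol, and all 4 were among the 17108 named genes of the cortex table. In liver 3 of the 4 were among 13338 named genes, and Rorb was not listed. RNA was sequenced from cortex and liver of the same 62 mice, 62 libraries per tissue, to follow daily gene expression before, during and after sleep loss. All mice were 11 to 12 weeks old and lived under alternating light and dark phases of 12 h with free access to food. The 26 undisturbed mice (labelled NSD) were killed at zeitgeber times (ZT, hours after light onset) ZT0, ZT3, ZT6, ZT12 and ZT18, with 8, 3, 5, 5 and 5 mice, and ZT0 pools mice labelled time 0 and time 24. The 36 sleep-deprived mice (labelled SD) had a 6 h deprivation by gentle handling that began at light onset. Times count in hours on a scale that starts with the baseline day, so deprivation ran between T24 and T30. Mice were killed, 3 at each time, during or at the end of deprivation (T27, T30), over the first recovery day (T36, T42, T48), on the next days (T54, T60, T66 and then T72, T78) and a week later (T192, T198). Neither strain nor sex appears in the labels.

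REV-ERBs and RORs bind the same DNA element, the ROR response element or RORE, whose core is AGGTCA, and act on it in opposite directions. REV-ERBs recruit a corepressor complex that holds the deacetylase HDAC3 and use heme as a ligand, whereas RORs recruit coactivators. Among their best-known targets is Arntl, which encodes the activator BMAL1. BMAL1 and CLOCK in turn drive Nr1d1 and Nr1d2 through E-boxes (CACGTG), which closes a loop between activator and repressor. In liver the same receptors also tie the clock to lipid, bile acid and glucose metabolism. Rorb is a gene of the nervous system and a marker of layer 4 neurons in cortex.

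The tables were normalised separately to CPM (reads per gene scaled to library size), which summed to 979177 to 1020372 per library in cortex and 919743 to 1070244 in liver. They carry no read counts, so depth is unknown and no counting interval can be given. All 7 markers of cortical neurons and glia were listed in cortex (summed 8191 to 9688 CPM per library) and all 6 hepatocyte markers in liver (79700 to 125155 CPM), whereas none of 5 Kupffer cell markers was listed in cortex. Each library lay a root mean square distance of 0.186 to 0.328 (log2) in cortex and 0.265 to 0.505 in liver from the mean of the other replicates of its group. Every p-value below covers the spread between these libraries, and comparisons made against the same controls (T48, T72 and T192 all against ZT0, for example) are not independent. In bulk tissue, fewer cells of a type and less RNA per cell cannot be told apart.

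In GRCm38 all 4 are protein-coding genes. Nr1d1 lies on chr11:98767932-98775333 (minus strand), Nr1d2 on chr14:18204054-18239127 (minus), Rora on chr9:68653786-69388246 (plus) and Rorb on chr19:18930605-19111196 (minus). The 3' end of Nr1d1 overlaps that of Thra, the thyroid hormone receptor α gene on the opposite strand, over 1075 bp, of which 263 are exonic in both. Rora overlaps the antisense gene Gm15511 over 82 exonic bases. How strand entered the counting is not stated in the labels, so reads from these stretches may not be assigned to the right gene.

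The promoter sequences just before the RefSeq starts of the REV-ERB genes (GRCm38.p6) are shown because these transcripts varied most with time of day and were called after deprivation. They are printed 5′ to 3′ on the gene's strand, in lower case, with any match to the RORE core AGGTCA, the E-box CACGTG or the D-box TTANGTAA in capitals, searched on both strands. The Nr1d1 window is chr11:98775378-98775627 (minus strand) and the Nr1d2 window, cut where an exon of the gene begins, is chr14:18239128-18239356 (minus strand).
Nr1d1: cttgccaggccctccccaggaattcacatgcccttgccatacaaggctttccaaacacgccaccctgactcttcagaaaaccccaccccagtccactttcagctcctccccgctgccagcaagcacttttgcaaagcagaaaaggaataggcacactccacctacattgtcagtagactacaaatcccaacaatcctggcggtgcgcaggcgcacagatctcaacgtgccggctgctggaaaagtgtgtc
Nr1d2: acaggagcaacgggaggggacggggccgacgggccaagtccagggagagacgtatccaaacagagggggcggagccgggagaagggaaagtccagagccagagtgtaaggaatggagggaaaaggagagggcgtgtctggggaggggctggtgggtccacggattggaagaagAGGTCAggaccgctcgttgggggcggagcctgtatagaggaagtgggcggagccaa
The Nr1d2 window holds AGGTCA, 77 bases before the start, and the Nr1d1 window holds none of the 3 motifs. Of 32851 RefSeq promoter windows of 250 bases, 14.0% held AGGTCA, 6.02% CACGTG and 2.06% TTANGTAA. The first listed promoters of Rora and Rorb and the promoters of Arntl held no match, and a second Rorb promoter held TTACTTAA, a match to the D-box, 95 bases before its start. Elsewhere in the loop, Cry1 held CACGTG 60 bases before its start. Clock, in promoter 3 of those listed for it, held TGACCT, the reverse complement of AGGTCA, 119 bases before the start. Nfil3 also held TGACCT, 12 bases before its RefSeq start. The Nfil3 match lies in the 34 bases of its window that overlap an annotated exon of the gene. A match of this kind describes letters only and says nothing of binding.

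In undisturbed cortex both REV-ERB transcripts cycled, with Nr1d1 highest at ZT6 and Nr1d2 highest at ZT12. On the log2 CPM scale Nr1d1 was 6.39 ± 0.15 at ZT0 (mean ± SD, n = 8), 6.78 ± 0.12 at ZT3 (n = 3), 7.34 ± 0.08 at ZT6 (n = 5), 7.25 ± 0.05 at ZT12 (n = 5) and 6.62 ± 0.15 at ZT18 (n = 5), a 1.93-fold range. In the order of these levels only ZT12 and ZT3 were neighbours whose libraries did not overlap. Nr1d2 stood at 6.93 ± 0.15 at ZT0, 6.96 ± 0.08 at ZT3, 7.34 ± 0.07 at ZT6, 7.61 ± 0.07 at ZT12 and 7.33 ± 0.09 at ZT18, a 1.60-fold range. Here the libraries of ZT12 lay above those of ZT6, and those of ZT18 above those of ZT3, while the other neighbours overlapped. The RORs moved far less. Rora ranged from 7.21 ± 0.11 at ZT0 to 7.36 ± 0.06 at ZT12 (1.11-fold) and Rorb from 6.26 ± 0.14 at ZT0 to 6.58 ± 0.07 at ZT18 (1.25-fold), with every pair of neighbours overlapping.

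An F test over the 5 control times (4 df, limma, Benjamini-Hochberg over all named genes) passed the 0.05 threshold in cortex for 3 of the 4 members: Nr1d1 (adjusted p = 4.08e-13), Nr1d2 (2.98e-13) and Rorb (0.0073). Rora did not pass (0.128). Of all genes tested in cortex, 41.9% passed, so a call alone is common. In liver 2 of the 3 passed, Nr1d1 (1.39e-15) and Nr1d2 (2.53e-17), against 52% of all genes, and Rora again did not (0.229).

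In undisturbed liver the swing of the REV-ERBs was much wider. Nr1d1 averaged 3.36 ± 1.29 at ZT0 (n = 8), 6.31 ± 0.33 at ZT3 (n = 3), 7.32 ± 0.26 at ZT6, 4.52 ± 0.19 at ZT12 and 1.11 ± 0.32 at ZT18 (n = 5 each), a 74.0-fold range, and only ZT12 and ZT0 overlapped among neighbours. Nr1d2 averaged 4.30 ± 0.55 at ZT0, 6.04 ± 0.09 at ZT3, 6.98 ± 0.31 at ZT6, 6.65 ± 0.23 at ZT12 and 4.82 ± 0.09 at ZT18, a 6.42-fold range, with overlap between ZT6 and ZT12 and between ZT18 and ZT0. Rora stayed between 6.55 ± 0.21 at ZT12 and 6.89 ± 0.41 at ZT18 (1.27-fold), and all neighbours overlapped.

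Liver Nr1d1 at ZT0 had the widest SD of any control group of the members, and its libraries lay apart. The 8 values were 2.03 (J70N2), 2.05 (J70N1), 2.35 (T0N3), 2.95 (T0N1), 2.97 (T0N2), 4.61 (T0N5), 4.67 (T0N8) and 5.25 (T0N9). The 3 mice highest in Nr1d1 were also the 3 highest in Nr1d2, at 4.82, 4.99 and 4.98, against 3.60 to 4.13 in the other 5. Both label times and both label batches occur among the high and the low libraries. Arntl, the target gene, was 5.61, 5.44 and 5.08 in the 3 high mice and 5.40 to 5.67 in the others, so the sets overlapped for it. All 8 lay above the highest ZT18 library (1.57) and below the lowest ZT3 library (5.97).

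**Figure D1:**
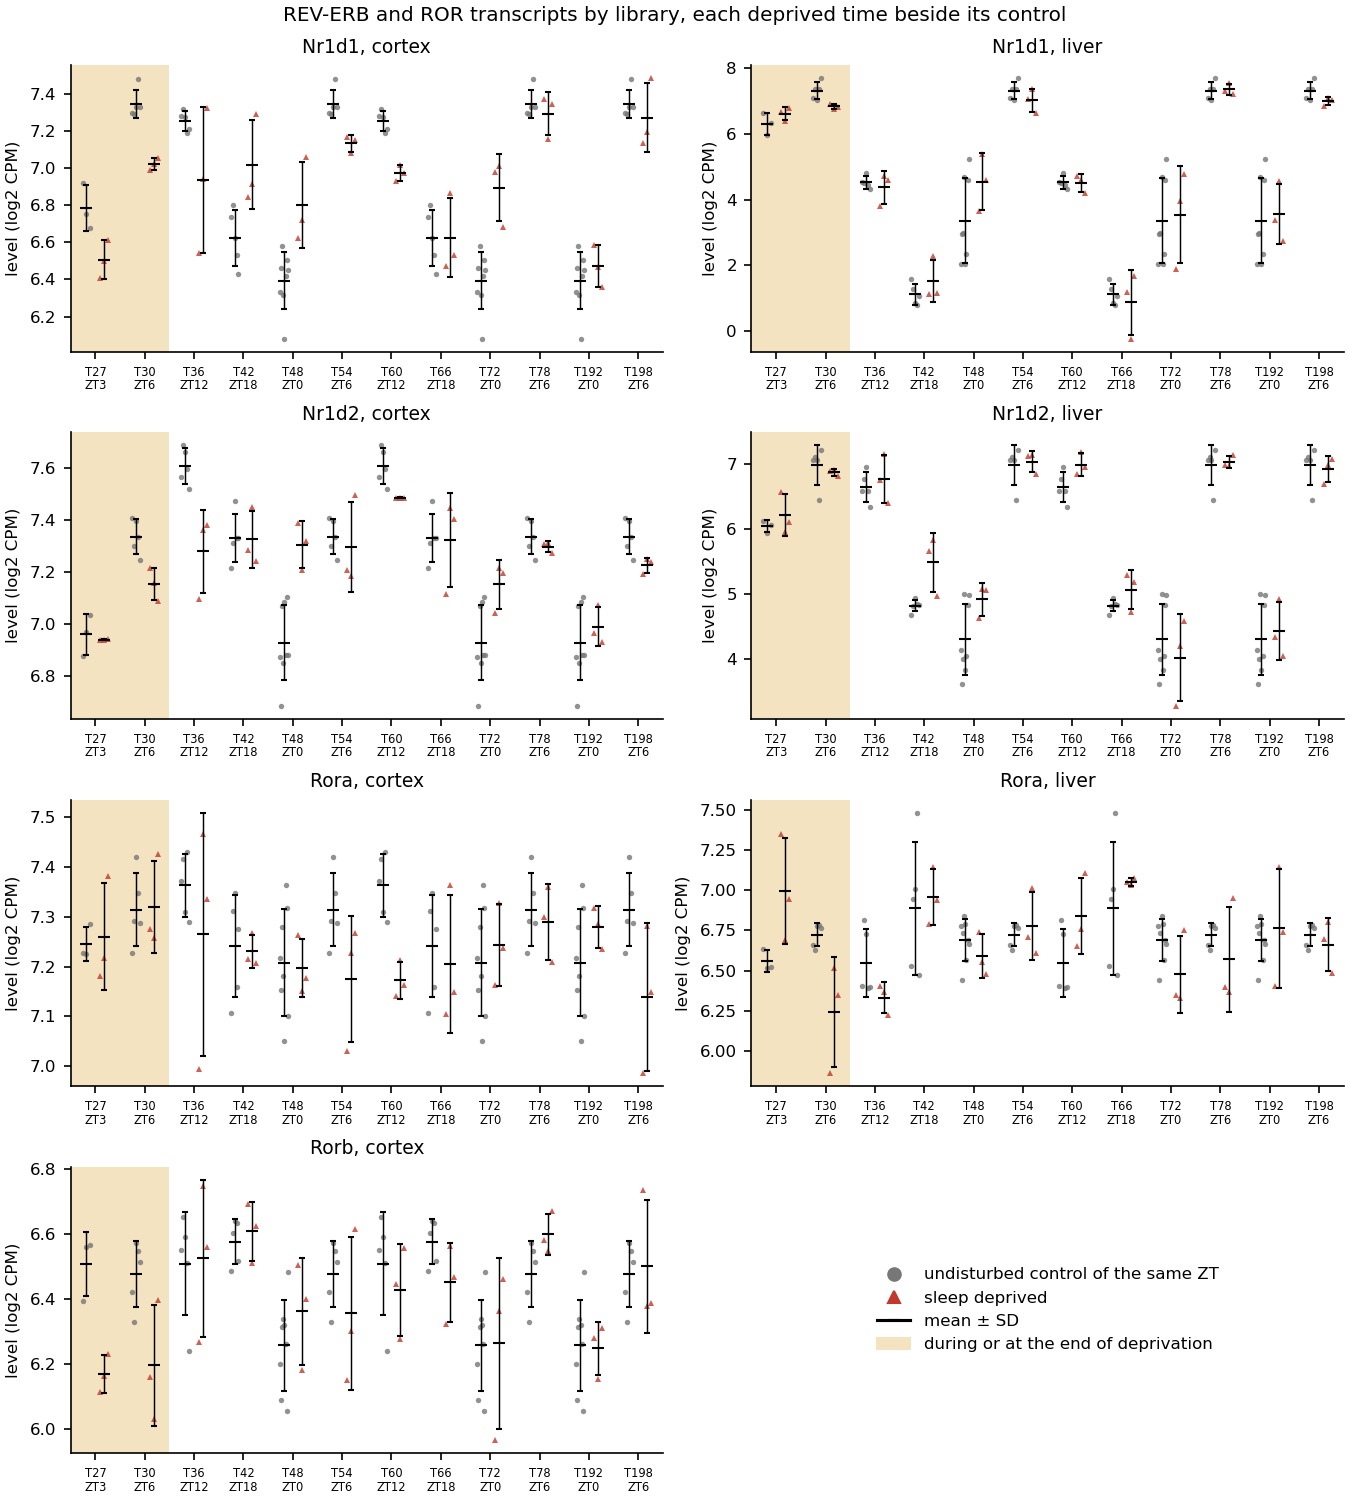
Level of each receptor transcript (log2 CPM, vertical axis) at each control ZT and each deprived time, with a point for every library and the mean ± SD of each group; vertical scales differ between panels. Liver Nr1d1 spans 1.11 to 7.32 between control means, against 6.39 to 7.34 in cortex, and Rora control means stay within 1.11-fold in cortex and 1.27-fold in liver.

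Levels can be compared between genes only per length. Divided by exonic length, cortex group means over the 17 groups ran from 27.5 to 52.9 CPM per kb for Nr1d1, 22.6 to 36.1 for Nr1d2, 10.8 to 12.6 for Rora and 6.50 to 8.82 for Rorb. In liver they ran from 0.680 to 53.6 for Nr1d1, 3.19 to 24.4 for Nr1d2 and 5.90 to 10.1 for Rora. Rora thus lay below both REV-ERBs at all times in cortex, while in liver the REV-ERB minima lay below every Rora mean. In a fit of both tissues the daily pattern of Nr1d1 and of Nr1d2 differed between cortex and liver (F test over the control times, limma, adjusted p = 1.89e-17 and 6.05e-19 over 12194 shared genes), as did that of 48.6% of all genes. For Rora this difference did not pass (0.105).

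In cortex Nr1d1 and Rorb fell at T30, Rorb also at T27 and Nr1d2 at T36, and both REV-ERBs rose at T48, 18 h into recovery. The timing of these calls was not compared between genes, and it rests on the threshold. Nr1d1 was called at 2 of 12 deprived times (T30 lower, T48 higher), Nr1d2 at 2 (T36 lower, T48 higher), Rorb at 2 (T27 and T30, both lower) and Rora at none. By time this makes 1 of 4 members at T27, where 16.4% of all genes were called, 2 at T30 (32.4% of all genes), 1 at T36 (12.5%), none at T42 (1.03%) and 2 at T48 (1.49%). At T27, T30 and T36 the count of members was therefore near the background, whereas at T48 the background was small. From T54 to T198 no member and 0% of all genes were called.

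Nr1d1 encodes REV-ERBα. At T30, the end of deprivation, its 3 cortex libraries read 6.99, 7.02 and 7.05 log2 CPM, all below the 5 controls at ZT6 (7.29 to 7.48, median 7.33). It fell by 0.32 ± 0.11 (SE, adjusted p = 0.0236, limma, n = 3 against 5). At T27 the values were 6.41, 6.50 and 6.61 against 6.68, 6.75 and 6.92 at ZT3, again without overlap, but the difference of −0.28 ± 0.12 did not pass (adjusted p = 0.122). At T36 the libraries spread widely, at 6.54, 6.94 and 7.32 against 7.19 to 7.32 at ZT12, and the difference of −0.32 ± 0.11 did not pass either (adjusted p = 0.0547). The T30 call was lost with controls of the same label batch only (adjusted p = 0.0709) and without T30S1, T30S3 or T30S4 (0.0741, 0.0587 and 0.0502). Without T36S4, the highest library of T36, the T36 difference became −0.51 and passed (0.00211).

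At T42, T48 and T72 all Nr1d1 libraries of cortex lay above their controls. At T42 the libraries read 6.85, 6.91 and 7.29 against 6.43 to 6.80 (median 6.63) at ZT18, all above, with a difference of +0.39 ± 0.11 that did not pass (adjusted p = 0.0713). At T48 they read 6.62, 6.72 and 7.06 against 6.08 to 6.58 (median 6.44) in the 8 ZT0 controls, and Nr1d1 rose by 0.41 ± 0.11 (1.33-fold, adjusted p = 0.0354). At T72, a day later at the same ZT, they read 6.68, 6.98 and 7.01, again all above the same controls. That difference was +0.50 ± 0.11, with an unadjusted p of 2.3e-05, but at T72 no gene passed and its adjusted p was 0.0772. The other times at these ZTs gave overlapping libraries, with differences of 0.00 ± 0.12 at T66 (ZT18) and 0.08 ± 0.11 at T192 (ZT0). At T54 and T60 all libraries lay below their controls, by −0.21 ± 0.11 (adjusted p = 0.519) and −0.28 ± 0.12 (0.66), and neither passed. The T48 call was lost in 8 of 17 alternatives, among them leaving out T48S4 (+0.28, adjusted p = 0.33), T48S3 (0.0681), or the controls T0N1, T0N2, T0N3 or T0N5 (0.0541 to 0.0829).

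Nr1d2 encodes REV-ERBβ, the paralog of REV-ERBα. At T30 its libraries read 7.09, 7.16 and 7.21, all below the ZT6 controls (7.25 to 7.41), with a difference of −0.18 ± 0.07 that did not pass (adjusted p = 0.0542). At T36 they read 7.10, 7.36 and 7.38, all below the ZT12 controls (7.52 to 7.69), and Nr1d2 fell by 0.33 ± 0.07 (adjusted p = 0.00181). By T42 no difference was left, at −0.01 ± 0.07. At T48 the libraries read 7.21, 7.32 and 7.39, all above the 8 ZT0 controls (6.68 to 7.10, median 6.88), and Nr1d2 rose by 0.38 ± 0.07 (1.30-fold, adjusted p = 0.00205). The T48 rise passed in all 17 alternatives (0.33 to 0.42, adjusted p up to 0.0409). The T36 fall passed in 13 of 14 and was lost without T36S1 (−0.23, adjusted p = 0.0744), the library that was lowest of the T36 group for all 4 members.

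**Figure D2:**
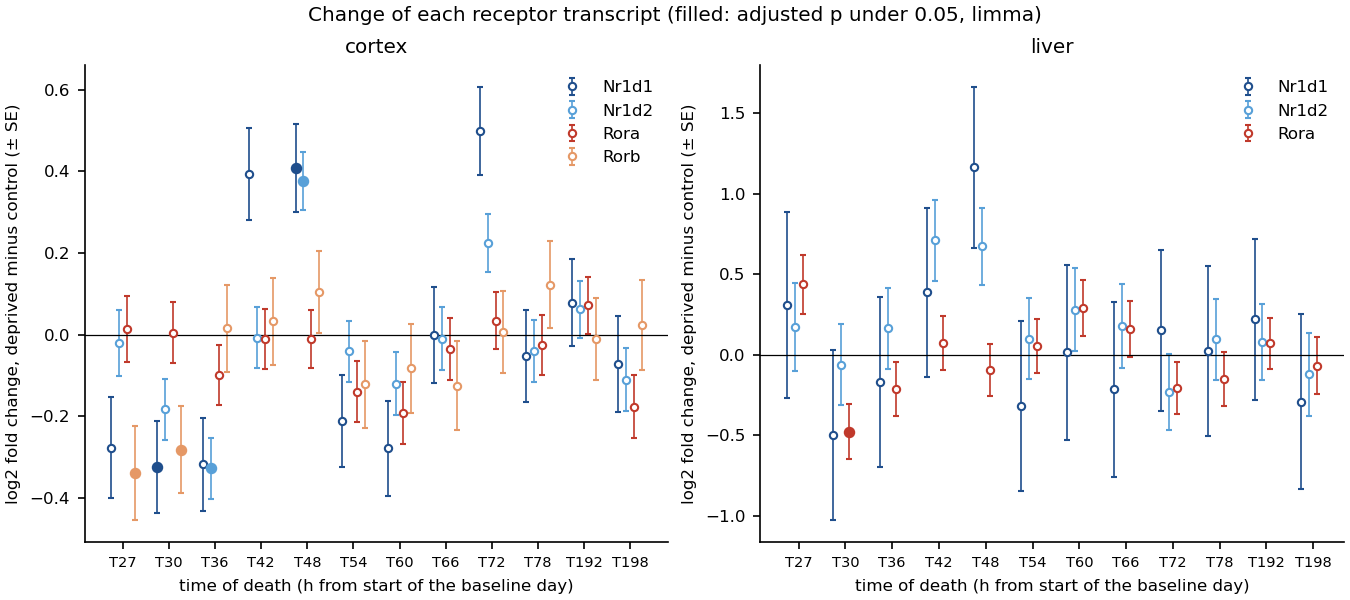
Difference between deprived mice and controls of the same ZT (log2, ± SE, vertical axis) for each receptor transcript at the 12 deprived times, with filled points where the adjusted p was under 0.05. In cortex Nr1d1 and Nr1d2 pass below 0 at T30 or T36 and above 0 at T48, Rorb passes below 0 at T27 and T30, and in liver only Rora at T30 is filled.

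Rorb fell during the deprivation itself. At T27 its cortex libraries read 6.11, 6.16 and 6.23, all below the ZT3 controls (6.39, 6.56 and 6.57), a fall of 0.34 ± 0.12 (adjusted p = 0.0357, limma, n = 3 against 3). At T30 they read 6.03, 6.16 and 6.40 against 6.33 to 6.57 at ZT6, a fall of 0.28 ± 0.11 (0.0360) with overlap of 1 library. From T36 on, its differences lay between −0.12 and 0.12 and none passed. The T27 call was lost without T3N3, T3N4, T27S2, T27S3 or T27S5 (adjusted p 0.053 to 0.122), so 5 of the 6 libraries decide it. The T30 call was lost without T30S3 (−0.20, 0.229), T30S1 (0.105), T6N4 (0.0877), J76N1 (0.0573) or J76N2 (0.0541), with same-batch controls (0.104) and with only these 2 groups in the fit (0.0502).

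Other markers of layer 4 were measured beside Rorb. At T27 none of the 5 (Rspo1, Scnn1a, Whrn, Kcnh5 and Cux2) was called, with a median difference of −0.03, and their summed level was 275 to 315 CPM against 296 to 307 in the ZT3 controls. The largest of these differences was that of Kcnh5, −0.11, with a 95% interval of −0.72 to 0.50. The other intervals were those of Cux2 (−0.23 to 0.10), Whrn (−0.25 to 0.20), Rspo1 (−0.18 to 0.29) and Scnn1a (−0.31 to 0.28). The interval of Rorb, −0.57 to −0.11, overlaps each of them, and the difference between Rorb and a marker was not tested. At T30 Whrn rose by 0.27 (adjusted p = 0.0391) and no other was called (Cux2 −0.11, Scnn1a −0.16), with sums of 255 to 316 against 251 to 305 CPM. Thalamic markers, which can enter a cortical dissection, gave no call among 4 at either time and sums of 36.6 to 43.3 against 37.9 to 53.8 CPM at T27. Among them Tcf7l2 lay at −0.57 ± 0.28 at T27, with an unadjusted p of 0.0432 and an adjusted p of 0.157, and its part in the Rorb result was not tested. Choroid plexus markers did differ at T27, where 2 of the 3 listed fell, with summed levels of 4.71 to 6.31 CPM against 8.09 to 122 CPM in the ZT3 controls, and their part in the T27 results was not tested. Of 6 markers of layers 5 and 6, 1 rose at T27, 2 fell at T30 and 1 fell at T36. Of the 7 markers of neurons and glia, 1 fell at T30 and 1 rose at T48. Layer 4 markers gave 1 rise at T36 and 2 falls at T48. The summed level of layers 5 and 6 was 161 to 214 CPM at T36 against 225 to 261 in the ZT12 controls, and 238 to 266 CPM at T48 against 209 to 237 in the ZT0 controls, without overlap at either time. Of 5 striatal markers, 1 rose at T48 (sums of 76.1 to 91.9 against 73.2 to 84.6 CPM), and of 4 listed stellate and endothelial markers 1 rose and 1 fell at T36 (117 to 137 against 120 to 140 CPM). Of the 3 hepatocyte markers listed in cortex, 1 fell at T30 (9.53 to 11.1 against 11.2 to 15.7 CPM) and 1 at T36 (9.43 to 10.1 against 11.4 to 13.4 CPM), and the bile duct marker listed, Sox9, fell at T30 (21.5 to 24.3 against 24.6 to 31.0 CPM). The part of these in the receptor results was not tested.

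Rora, the more abundant ROR of cortex by CPM per kb, was not called at any time in cortex. Its differences ran from −0.19 to 0.07. The lowest was at T60, where 7.14, 7.16 and 7.21 lay below the ZT12 controls (7.29 to 7.43) with an adjusted p of 0.642, and 2 of its 12 differences had an unadjusted p under 0.05. Over all 12 times an F test that all changes are 0 (12 df, limma) passed in cortex for Nr1d1 (adjusted p = 4.7e-05) and Nr1d2 (0.000146), but not for Rorb (0.056) or Rora (0.268), against 35.2% of all genes. A test that the 12 changes differ from each other (11 df) gave Nr1d1 2.91e-05, Nr1d2 9.15e-05, Rorb 0.062 and Rora 0.325, and 35.2% of all genes passed it too.

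The rhythm on recovery day 2 (T48 to T66) was compared with the control rhythm by 2 terms (F test, 2 df). The cosine term was the ZT0 minus ZT12 difference and the sine term the ZT6 minus ZT18 difference. Mice of T48 and T54 are all label batch 1 and those of T60 and T66 all batch 2. Both terms therefore cross batches. In liver they rest on the batch covariate of the fit. In cortex the label batch had been removed before deposit, so they rest on that removal, and the covariate bears only on the SE and the test. With it neither REV-ERB passed in cortex. Without it both did (F test, adjusted p = 0.0229 for Nr1d1 and 0.0186 for Nr1d2), but such a fit ignores the removal, so its p-values come out too small. The cosine term is positive where levels near ZT0 are raised and those near ZT12 lowered. It changed by +0.69 ± 0.17 for Nr1d1 and +0.50 ± 0.11 for Nr1d2, and the sine terms by −0.21 ± 0.17 and −0.03 ± 0.11. The F test over both terms gave adjusted p = 0.0886 for Nr1d1 and 0.0778 for Nr1d2, and neither term was tested alone. Rora (0.432) and Rorb (0.73) did not pass either. Arntl passed this F test (adjusted p = 0.0158) and was 1 of the 0.0117% of genes that did. Its cosine term changed by −0.53 ± 0.09, opposite in sign to the REV-ERBs. Both REV-ERBs passed the F test without T54S4 (adjusted p = 0.0171 and 0.0095) or T66S2 (0.0386 and 0.0249). Nr1d2 also passed it without T48S3 (0.0453) or T6N3 (0.05 after rounding).

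In liver 1 of the 3 listed members was called, at 1 time. Rora fell by 0.48 ± 0.17 at T30 (adjusted p = 0.0456, limma, n = 3 against 5), with libraries of 5.86, 6.35 and 6.52 all below the ZT6 controls (6.63 to 6.78). At T27, 3 h earlier, its libraries of 6.69, 6.94 and 7.35 had all been above the ZT3 controls (6.52 to 6.64), with a difference of +0.44 ± 0.18 that did not pass (0.271). Of all liver genes, 1.5% were called at T27, 15.8% at T30, 3.16% at T36, 0% at T42 and 0.015% at T48. From T54 to T198, 0% were called. The T30 call was lost without T30S1 (−0.29, adjusted p = 0.406), T30S4 (0.0651), T6N2, T6N3 or T6N4 (0.0819, 0.0775 and 0.0823), and also with the factor found in the liver values as a covariate (0.0674), so it rests on single libraries. At T30 none of the 6 hepatocyte markers, 4 bile duct markers, 5 Kupffer cell markers or 5 stellate and endothelial markers was called. Of the 3 neuron and glia markers listed in liver, 1 fell at T30 (summed level 11.4 to 19.3 CPM against 25.4 to 37.9), and its part in the result was not tested.

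Neither REV-ERB was called in liver, where the SE was several times that in cortex. Nr1d1 ran from −0.50 ± 0.53 at T30 (adjusted p = 0.576) to +1.16 ± 0.50 at T48 (0.405). At T30 the liver libraries of Nr1d1, 6.77, 6.83 and 6.93, all lay below the ZT6 controls (7.04 to 7.70). At T48 they read 3.67, 4.60 and 5.38, within the 2.03 to 5.25 of the ZT0 controls apart from the highest. Nr1d2 read 4.97, 5.66 and 5.83 at T42, all above the ZT18 controls (4.68 to 4.93), and the difference of +0.71 ± 0.25 had an adjusted p of 0.322. At T48 it read 4.62, 5.05 and 5.08 against 3.60 to 4.99, a difference of +0.67 ± 0.24 (0.256). Among the 12 times, 1 difference of Nr1d1, 2 of Nr1d2 and 2 of Rora had an unadjusted p under 0.05. The 12 df test gave adjusted p-values of 0.821 for Nr1d1, 0.203 for Nr1d2 and 0.197 for Rora (10.7% of all liver genes passed). The test among changes gave 0.794, 0.294 and 0.163 (10.7% passed). The day 2 rhythm test gave 0.783, 0.87 and 0.774 (0% passed).

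A call in cortex and none in liver does not show that the tissues differ, so the difference itself was tested at T27, T30, T36, T42 and T48. No member passed at any of them, against 2.12%, 12.2%, 4.55%, 0% and 0.0574% of the 12194 shared genes. The change of Rora at T30 was 0.48 ± 0.19 higher in cortex than in liver (adjusted p = 0.0803). For Nr1d2 at T42 the cortex change was lower by 0.72 ± 0.27 (−0.72, adjusted p = 0.408). For Nr1d1 at T48 the cortex minus liver difference was −0.76 ± 0.52 (0.688).

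Thra, which shares 3' exonic bases with Nr1d1, was followed beside it. In cortex it lay at 8.72 to 8.79 log2 CPM at all control times and was called at none of the 12 deprived times. In liver it ranged from 2.98 at ZT12 to 3.87 at ZT0 and fell by 0.54 ± 0.12 at T30 (adjusted p = 0.00189, limma), with 2.65, 2.95 and 3.11 against 3.23 to 3.56. Liver Nr1d1 differed by −0.50 ± 0.53 at that time, with all libraries below the controls, and was not called (adjusted p = 0.576, limma).

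The balance of the REV-ERBs was taken as log2 Nr1d1 minus log2 Nr1d2 within a library, which compares each gene with the other over the same reads. Among controls it was 0.01 ± 0.10 at ZT6 and −0.35 ± 0.05 at ZT12 in cortex, and 0.34 ± 0.39 and −2.13 ± 0.10 in liver (n = 5 each). In both tissues the libraries at ZT6 and ZT12 did not overlap. An exact two-sided permutation test gave p = 0.00794 in each tissue, the smallest it can give, and an adjusted p of 0.103 over 26 such tests, so it did not pass. Liver went on to −3.71 ± 0.40 at ZT18 and back to −0.94 ± 0.85 at ZT0, while cortex stood at −0.71 ± 0.20 and −0.54 ± 0.22.

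After deprivation the balance passed at none of the 12 times in either tissue. The lowest p was in cortex at T60, where −0.55, −0.51 and −0.47 lay below −0.41 to −0.29 in the ZT12 controls (difference −0.16, exact permutation p = 0.0357, the smallest that 3 against 5 can give, adjusted p = 0.31). At T42 in cortex, where Nr1d1 lay 0.39 higher and Nr1d2 did not, the balance was higher by 0.40 (exact permutation p = 0.107, adjusted p = 0.464). At T48, where both had risen, it differed by 0.03. With 3 against 3 such a test cannot go below 0.1 and with 3 against 8 it cannot go below 0.0121. After adjustment over 26 tests, a lone comparison at its smallest p would not pass. The lack of a call therefore does not show that the balance was unchanged.

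**Figure D3:**
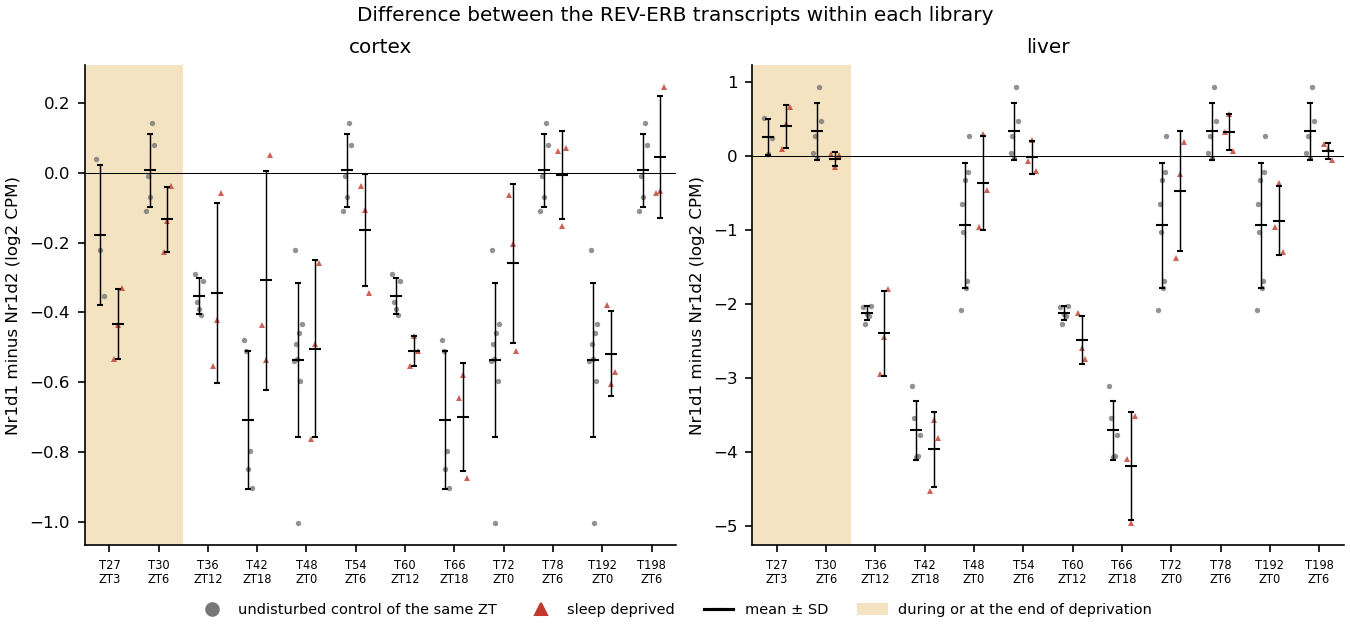
Nr1d1 minus Nr1d2 (log2 CPM, vertical axis) in each library, for deprived mice and controls of the same ZT, with mean ± SD; the vertical scales of the tissues differ. Between ZT6 and ZT12 the control mean goes from 0.01 to −0.35 in cortex and from 0.34 to −2.13 in liver.

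Genes listed as RORE targets of the clock rose in part at T27, T30 and T36 in cortex, and Arntl fell at T48. Of the 6 listed, 2 rose and none fell at T27 (16.4% of all genes were called in either direction), 4 rose at T30 (32.4%), 3 rose at T36 (12.5%), and 1 fell and none rose at T48 (1.49%). Their median differences were 0.17, 0.24, 0.17 and −0.16, against −0.01, −0.01, 0.00 and 0.00 over all genes. Neither REV-ERB was called at T27. Arntl read 5.78, 5.84 and 5.91 at T30 against 5.54 to 5.63 at ZT6, and rose by 0.25 ± 0.06 (adjusted p = 0.00123, limma). It rose by 0.35 ± 0.06 at T36 (3.53e-05), with 5.37, 5.45 and 5.52 against 5.03 to 5.16. At T48, when both REV-ERBs were higher, Arntl read 5.47, 5.54 and 5.58 against 5.86 to 5.99 in the 8 controls, and fell by 0.39 ± 0.06 (3.18e-05). Groups did not overlap at any of these 3 times. Nfil3, a repressor that competes with Dbp, rose by 0.64 ± 0.14 at T27, 0.97 ± 0.12 at T30 (3.57e-08) and 0.86 ± 0.12 at T36. Clock and its paralog Npas2, the partners of BMAL1, rose at T30 by 0.23 and 0.39, Npas2 also at T36 by 0.22, and Cry1, a repressor of BMAL1 and CLOCK, rose at T27 by 0.50.

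In liver none of the 6 RORE genes was called at any time. Arntl, which swings 17.5-fold there, differed most at T36, by +1.00 ± 0.38 (adjusted p = 0.135), with 1.68, 2.18 and 2.87 against −0.26 to 2.42 at ZT12.

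**Figure D4:**
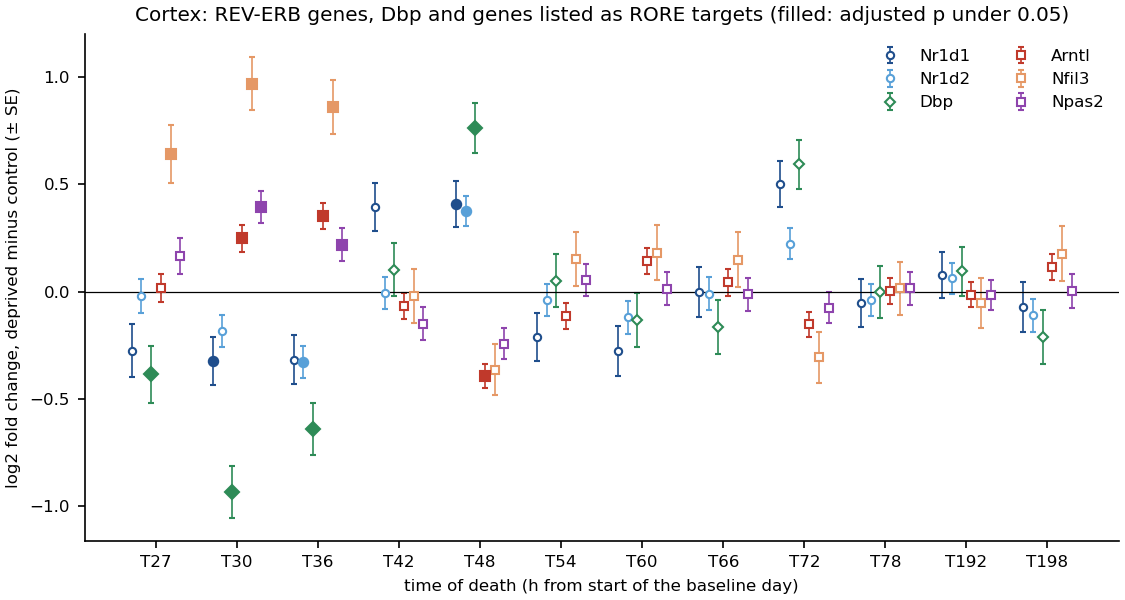
Difference between deprived mice and controls (log2, ± SE, vertical axis) in cortex at the 12 deprived times for Nr1d1, Nr1d2, Dbp and the RORE targets Arntl, Nfil3 and Npas2, with filled points where the adjusted p was under 0.05. Arntl lies at 0.25 and 0.35 at T30 and T36 and at −0.39 at T48, on the other side of 0 from the REV-ERBs.

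The E-box and D-box genes of the clock, many of which share their BMAL1 drive with the REV-ERBs, fell in part at T30 and T36 and rose in part at T48 in cortex. Of the 10 listed, 3 rose and 1 fell at T27 (median 0.06, with 16.4% of all genes called), 3 rose and 6 fell at T30 (−0.20, 32.4%), 6 fell at T36 (−0.35, 12.5%), 1 fell at T42 (−0.08, 1.03%) and 4 rose at T48 (0.19, 1.49%). Dbp, an activator of D-box genes, fell by 0.38 ± 0.13 at T27, 0.93 ± 0.12 at T30 (4.91e-08) and 0.64 ± 0.12 at T36, then rose by 0.76 ± 0.12 at T48 (5.78e-05). At T72 it stood +0.59 ± 0.12 from control without passing (0.0699), as Nr1d1 did. Bhlhe41, a repressor at E-boxes, fell by 0.54 and 0.59 at T30 and T36 and rose by 0.43 at T48, and Tef fell by 0.26, 0.41 and 0.17 at T30, T36 and T42 and rose by 0.15 at T48. Ciart, a repressor of BMAL1, rose by 0.78 at T48. Per2, Bhlhe40 and Per1 went the other way and rose at T27 by 1.49, 0.99 and 0.95, and Per2 was still higher at T30, by 1.02 (1.07e-06). In liver only Per1 at T27 (+1.91, adjusted p = 0.0404) and Cry2 at T30 (−0.68, 0.00121) were called.

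Partners of the receptors were called about as often as all genes at T30. Of 6 genes of the corepressor complex, 1 rose and 1 fell in cortex at T27 (16.4% of all genes were called), 1 rose and 2 fell at T30 (32.4%) and 1 rose at T42 (1.03%), and 1 fell in liver at T36 (3.16%). Tbl1xr1 fell in cortex by 0.30 at T27 and 0.35 at T30 and rose by 0.20 at T42, and Hdac3, its deacetylase, fell by 0.11 at T30 (adjusted p = 0.0142, limma). Of 6 coactivator genes, 2 were called in cortex at T30, where Ep300 and Ncoa3 rose by 0.21 and 0.15. Of 7 genes of REV-ERB turnover and heme, 2 rose at T27, 1 rose and 1 fell at T30 and 1 rose at T36 (12.5% of all genes). Siah2, an E3 ubiquitin ligase, rose by 0.30 and 0.39 at T27 and T30, and Hmox1, which breaks down heme, rose by 0.38 at T27. Fbxw7, another ligase subunit, fell by 0.17 at T30 and rose by 0.22 at T36. None of the coactivator or turnover genes was called in liver.

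Metabolic genes known as targets of these receptors were called in liver at T27, T30 and T36. Of 17, 1 rose and 1 fell at T27 (median 0.34, with 1.5% of all genes called), 2 rose at T30 (0.22, 15.8%) and 3 rose at T36 (0.16, 3.16%), so that the count at T30 was below the background. These compare with medians over all genes of 0.00, 0.00 and −0.01. Elovl3, a fatty acid elongase, rose by 0.89 at T30 (adjusted p = 0.0338, limma) and 1.37 at T36 (0.0053). Insig2, a brake on cholesterol synthesis, rose by 0.90 at T36, Plin2, a lipid droplet protein, by 0.65 at T36, and Lpin1, a phosphatidate phosphatase, by 1.74 at T30. Pck1, a key enzyme of gluconeogenesis, rose by 1.84 and Avpr1a, a vasopressin receptor, fell by 0.75 at T27. In cortex 8 of the 17 were listed: Por rose at T27 and T30, Insig2 rose and Fabp5 fell at T30, and Fabp5 and Lpin1 fell at T36.

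Over the 17 group means of a tissue, the genes most like each member were listed by Pearson's r as a description, since the points share libraries, controls and normalisation. Cortex Nr1d2 was most like Bhlhe41 (0.95), Dbp (0.94), Ciart (0.94) and Srpk2 (0.90). Its paralog Nr1d1 was less close to any gene and was most like Lncppara, Gpr146 and Lamb3 (0.88 each), then Gm45104 and Terb1 (0.87 each). Rorb was most like Lrrc3 (0.88), Tshz1 (0.87), Cyp39a1 (0.86), Gid8 (0.85) and Slitrk3 (0.83), and Rora was most like Strbp (0.78), Gm45094 (0.76), Kcnq3 (0.75), Pikfyve (0.71) and Tfcp2l1 (0.69). In liver Nr1d1 was most like Rbms1 and Utp14a (0.97 each), then Pvr (0.95), Alcam and Tns2 (0.94 each), and Nr1d2 was most like Dbp (0.96), Clmn (0.95), Rgs16, Cast and Uox (0.94 each). Liver Rora was most like Asph (0.82), Glce, Il1a and Gm44250 (0.81 each) and Mecom (0.80). Nr1d1 and Nr1d2 correlated with each other at 0.63 in cortex and 0.71 in liver.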

How the data were processed

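RNA-seq of cortex and liver from the same 62 mice was used as deposited. Liver libraries were TruSeq Stranded mRNA, read single-end on a HiSeq 4000, per the labels' protocols. These protocols do not describe cortex. The authors used fastp, STAR 2.7.0e and edgeR with GRCm38 (mm10), per the submitters' processing notes. The deposited values are log2 CPM, in 1 table per tissue. Entries without a name (77 in cortex, 0.0618% of the signal, and 35 in liver, 0.0337%) were left out. The label batch had been removed from the cortex values, and a factor absent from the labels (2 dimensions) from the liver values. Its levels can be read only within groups that mix them, where 8 and 4 libraries stood at levels other than their group's most common. Liver p-values come out too small, as the fits leave that factor out.

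Each tissue was fitted with limma 3.58.1 (R 4.3.3): 17 groups plus the label batch (40 and 22 libraries), eBayes with a mean trend, 44 residual degrees of freedom. Values were tested without pseudocount or filter, with Benjamini-Hochberg adjustment over all named genes and a threshold of 0.05. T60, T66, T192 and T198 are all batch 2, the other deprived times and ZT3 all batch 1. Exact permutation tests used scipy 1.17.1. The code was tested on simulated data. Positions are from GENCODE M21 and promoter sequences from RefSeq. The same animals gave both tissues, by the shared animal codes. The correlation of an animal's deviations between tissues was −0.0879 to 0.161 (median 0.0258, over 0.1 in 7 of 62). Alternatives left out the batch, the trend, the 20% of genes with the lowest means, other-batch controls, other groups or single libraries, centred libraries, or added the liver factor or the animal block. The test among changes was chosen after seeing the data.

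The members, gene lists and tests were chosen with earlier results of these data known. Always named were the members, Thra, Arntl and Dbp. Of each list, at most 4 called genes per comparison with the lowest p were named, and per member and tissue the 5 genes most like it. Some genes that the rule names are not reported here.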

Additional observations from a re-analysis of the deposited data

Results flagged for a closer look

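Of 28 control groups examined for a library far from the others, 2 held one, and chance gives about 1 in 20. In cortex the ZT6 control J76N1 was highest for Nr1d1, at 7.48 log2 CPM, with the next at 7.33 and the lowest at 7.29 (gap over range 0.801, critical value 0.71). In liver the ZT6 control T6N3 was lowest for Nr1d2, at 6.44, with the next at 7.06 and the highest at 7.22 (0.795).

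The daily pattern of the controls differed between cortex and liver for Nr1d1 (adjusted p = 1.89e-17, limma) and Nr1d2 (6.05e-19), as it did for 48.6% of all shared genes. In cortex the changes after deprivation differed between times for Nr1d1 (2.91e-05) and Nr1d2 (9.15e-05), with falls at T30 or T36 and rises at T48. Of all cortex genes, 35.2% passed this test too.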

How the results depend on the processing

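Over 45 results and 2462 alternative values (2243 from leaving out a library), 2365 kept their direction and side of the threshold or their range. A call was lost in 33 and gained in 27, 37 moved and 0 reversed. Only single log2 differences could be labelled reversed. The counts of calls and the adjusted p-values, which make up most of these values, could not. Without the batch covariate, cortex Nr1d1 was called at 5 times rather than 2, the day 2 rhythm passed for Nr1d1 (adjusted p = 0.0229, limma) and Nr1d2 (0.0186), and the 12 df test passed for Rorb (0.0417). Such cortex p-values come out too small, as the fit then ignores the batch removed before deposit. Without the trend, Nr1d1 was called at 1 time and liver Rora at 0, as liver Rora was with the liver factor as a covariate or with only the compared groups in the fit. Rorb was called at 1 time with same-batch controls and with only the compared groups.

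Leaving out single libraries gave 1 to 5 called times for cortex Nr1d1 (4 without T36S1 and 5 without T36S4; 1 without T0N1, T0N2, T0N5, T30S1, T30S3, T30S4 or T48S3), 1 to 2 for Rorb and 0 to 1 for liver Rora, which also lost its call without T12N4, T12N5, T12N6 or T18N4. Adjusted p ran from 0.0171 to 0.176 for the day 2 rhythm of Nr1d1, 0.0095 to 0.161 for that of Nr1d2 and 0.0183 to 0.172 for the 12 df test of Rorb, which 15 of these libraries brought under the threshold. The tissue difference of Rora was called at 0 to 1 times (1 without liver T18N8 or T30S3), and its control-times test ran from 0.0253 to 0.227 (under the threshold without liver T12N2, T18N2 or T18N7).

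With the animal as a replicate block, pairing cortex with liver, no tissue difference of a change was called (0 times for each of the 3 genes), and the control-times test gave 7.42e-13 for Nr1d1, 1.22e-14 for Nr1d2 and 0.104 for Rora. The pairing changed no call. Unknown depth limits low values most, such as liver Nr1d1 at ZT18.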
